A study of Mus musculus with 2 samples.

Results

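Imprinted genes are expressed mainly from the copy inherited from one parent, and 10 genes of the classical imprinted domains were described here by their accessible chromatin in adult mouse cortex: Peg3, Snrpn, Ndn, Ube3a, Meg3, H19, Impact, Plagl1, Grb10 and Cdkn1c. They are 10 of 55450 annotated genes, of which 27792 are protein-coding or long intergenic non-coding RNA (lincRNA) genes. Each locus was taken as the annotated gene body with 10 kb on either side, and each of the 75 distinct annotated transcription start sites (TSSs) of these genes was counted as a promoter of its own, with a window of 500 bp on either side. The rule lists the members by name and uses no measured value, although earlier results of these data were known when the list was made. The data are DNase-seq profiles, in which nuclei are cut lightly with DNase I so that cuts pile up where DNA is open. There is 1 group of 2 libraries, biological replicates 1 and 2, from the left cerebral cortex of B6CASTF1/J females aged 2 months, which are F1 offspring of a cross between C57BL/6J and CAST/EiJ, with no treatment and no second genotype in the labels. The libraries carry different female numbers but the same donor entry, so the spread between them may hold less than the spread between unrelated animals. With a single group there was nothing to test between conditions, and all comparisons are descriptions with n = 2.

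Imprinted genes lie in clusters, and each cluster is controlled by a stretch of CpG-rich DNA, the imprinting control region, that is methylated on the copy from one parent only. Where such a region is unmethylated it can act as a promoter, often of a non-coding RNA, or bind proteins such as CTCF, an insulator protein that methylation keeps off some of its sites. ZFP57 is a zinc finger protein that recognises a methylated TGCCGC word and keeps the methylated copy marked in the early embryo. The files do not resolve the alleles, so a peak could come from either copy or from both. In whole tissue, a peak present in fewer cells and a weaker peak in every cell cannot be told apart.

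The authors called peaks library by library, 128323 in replicate 1 and 119651 in replicate 2, with 340109 and 284674 footprints, short protected stretches inside open DNA. Peak signal is given as the authors' depth-normalized cut density. Peaks were joined across libraries wherever they shared 1 bp or more, and 52.2% of the 154220 merged peaks were shared, that is, found in both libraries. Promoter windows of all 6 excitatory and 4 inhibitory neuron marker genes held a shared peak, as did those of 2 of 4 astrocyte, 2 of 4 oligodendrocyte, 0 of 4 microglial and 1 of 3 endothelial marker genes. None of 5 marker genes of liver, muscle, epidermis and blood had one.

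Open promoters were found at 8 of the 10 imprinted genes, by the start sites of the GENCODE annotation. Ndn and H19 had no shared peak in any of their TSS windows, and no peak of a single library there either. The RefSeq annotation starts Ndn elsewhere, inside a shared peak with 1.77 in replicate 1 and 2.04 in replicate 2. Among protein-coding members, 7 of 8 had a shared promoter peak, beside 64.3% of all 21938 protein-coding genes. A gene was counted if any of its TSS windows held one. The members have more TSSs, a median of 8, beside 3 for protein-coding genes, and this share was not matched for it. Of the lincRNA members, Meg3 had one and H19 did not, beside 18.9% of 5854 lincRNA genes. Counted by promoter, 41 of 75 TSS windows of the members held a shared peak, or 54.7%, beside 49.7% of 101611 TSSs of protein-coding and lincRNA genes. Many of these windows overlap and share a peak, as for the 9 open Ube3a starts. With overlapping windows of a gene merged, 14 of 35 held a shared peak, or 40.0%, beside 32.9% of 55144 merged windows. Both shares lie near their background. The same 41 of 75 was reached with the deposited cut-rate tables, which list stretches whose local cut rate passes a false discovery rate (FDR) of 0.05. They come from the same libraries as the peaks, so this is not an independent count. For these tables the background was 50.9% of 101553 distinct TSS positions, and 29 member windows had no listed base pair in either library.

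Apart from Ube3a, the strongest promoter of each member lay below the median of open promoters. The median of the members' highest promoter signal was 2.09, beside 2.94 over 14073 protein-coding genes with a shared promoter peak, whose quartiles were 1.59 and 4.40. Ube3a, a ubiquitin ligase gene expressed from the maternal copy in neurons, was highest with 4.99 in replicate 1 and 6.05 in replicate 2 (5.52 ± 0.747, SD, n = 2), above 88.8% of those promoters. Next in order came Grb10 (2.36 ± 0.170, SD, n = 2), Snrpn (2.19 ± 0.290, SD, n = 2), Peg3 (2.13 ± 0.444, SD, n = 2) and Impact (2.05 ± 0.180, SD, n = 2), whose highest values came from different TSS windows in the libraries. Cdkn1c (1.69 ± 0.177, SD, n = 2), Meg3 (1.46 ± 0.216, SD, n = 2) and Plagl1 (1.41 ± 0.128, SD, n = 2) were lowest. Only Ube3a and Grb10, and Impact and Cdkn1c, were neighbours in this order whose ranges over the libraries did not overlap. The order depends on the window: with 250 bp on either side Grb10 fell from 2.36 to 1.23, below Plagl1, and with 1000 bp Meg3 rose from 1.46 to 2.61, because other peaks are then left out or taken in.

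**Figure D1:**
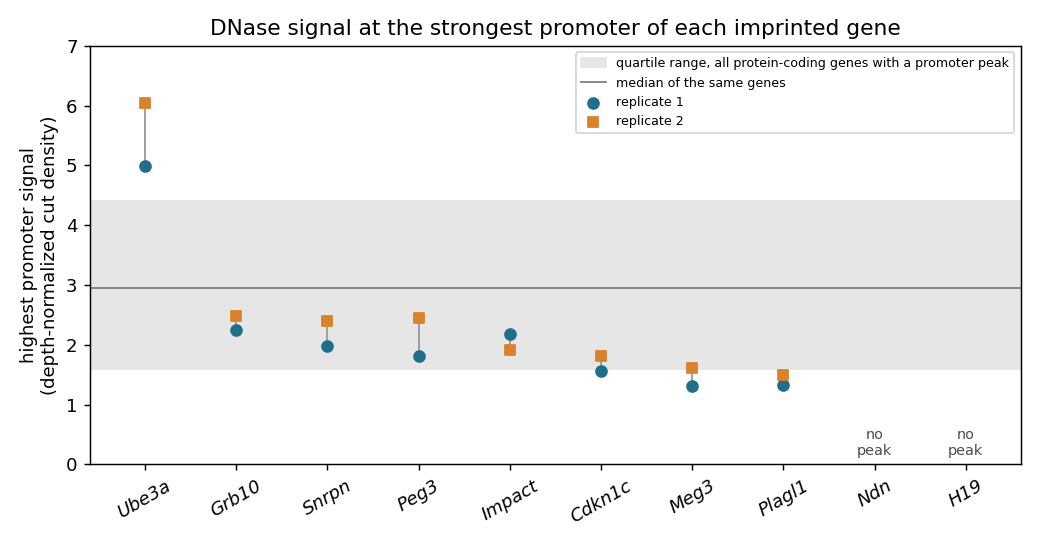
Highest promoter signal (vertical axis, depth-normalized cut density) of each gene (horizontal axis, ordered by mean) in replicate 1 (circles) and replicate 2 (squares), with the quartile range and median of protein-coding genes with a promoter peak. Ube3a, at 4.99 and 6.05, is the only gene above the band. Ndn and H19 had no peak in a GENCODE TSS window, and the peak at the RefSeq start of Ndn is not drawn.

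In 4 genes the strongest promoter lay inside the gene and not at its outermost annotated 5′ end: Snrpn, Plagl1, Grb10 and Impact. That is 4 of the 7 protein-coding members with a shared promoter peak, beside 14.7% of 14071 protein-coding genes and 21.8% of the 5509 that have 6 or more annotated TSSs. This count was chosen after its values were seen. The members are annotated with more starts than most genes, a median of 8, beside 3 for protein-coding genes. Of the 7, however, Snrpn with 2 TSSs, Peg3 with 4 and Cdkn1c with 5 fall short of the 6 required for the second background. Counting the outermost start alone, 7 of 10 members had a shared promoter peak, and Ndn, H19 and Grb10 had none.

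**Figure D2:**
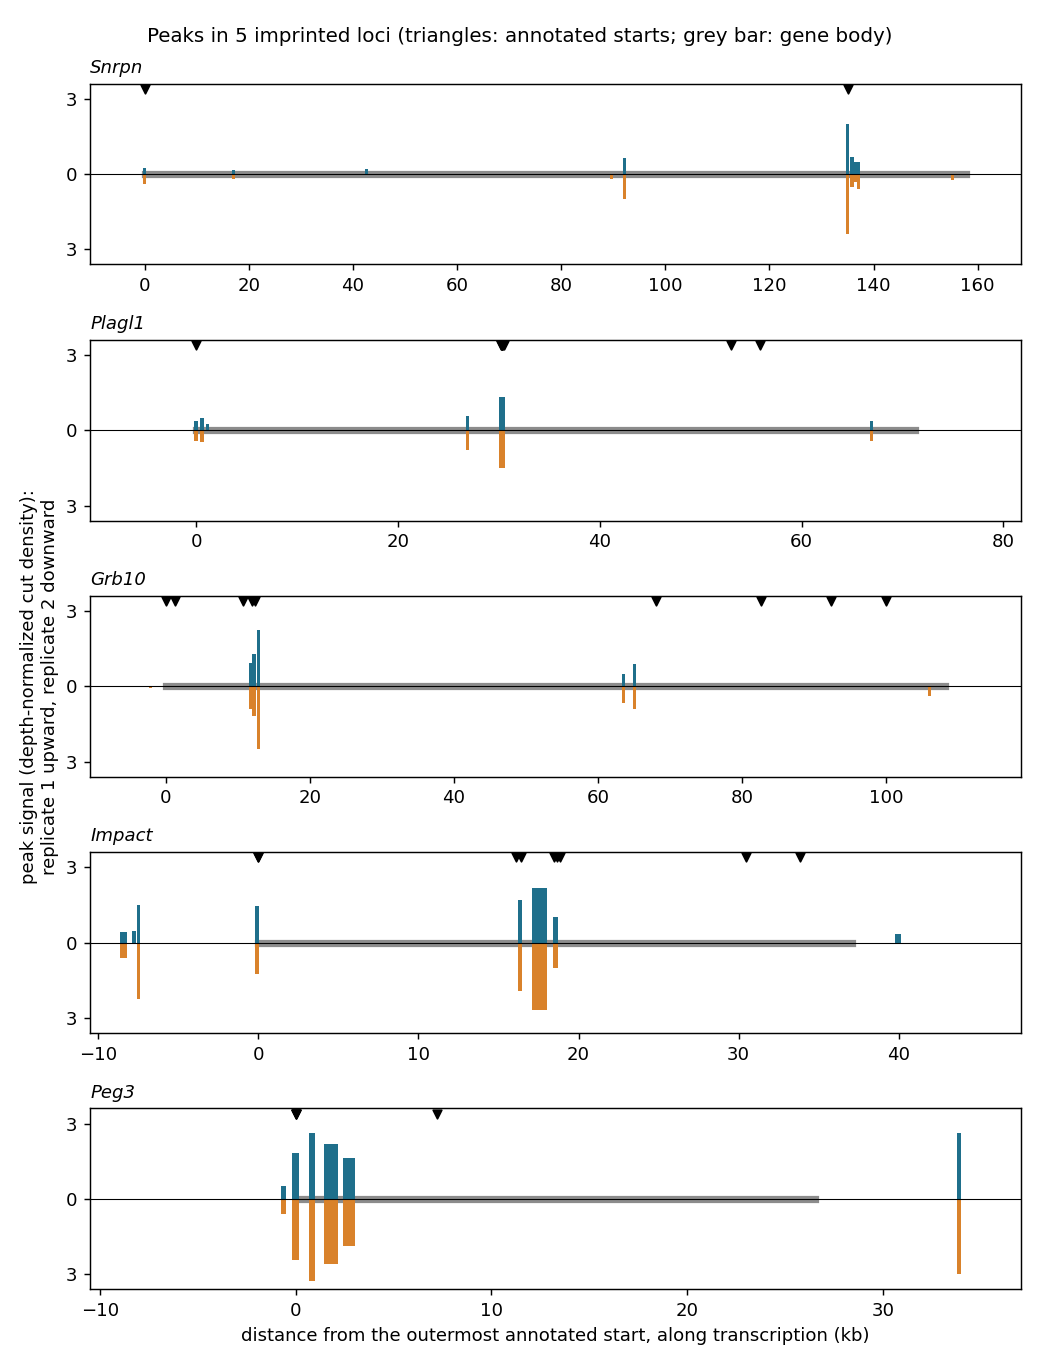
Peaks along 5 imprinted loci: distance from the outermost annotated start in kb (horizontal axis) against peak signal (vertical axis), with replicate 1 drawn upward and replicate 2 downward; triangles are annotated starts and the grey bar is the gene body. In Snrpn, Plagl1 and Grb10 the tallest bars stand at 135.058, 30.317 and 12.812 kb inside the gene, while in Peg3 they stand within 2.73 kb of the outermost start and again at 33.89 kb.

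The Snrpn, Ndn and Ube3a genes lie in the domain on chromosome 7 that corresponds to the human Prader-Willi and Angelman region. Snrpn encodes a protein of the splicing machinery, is expressed from the paternal copy and spans chr7:59982495-60140219 on the minus strand. Its main TSS, 135108 bp inside the annotated gene, had a peak at chr7:60005061-60005260 with a signal of 1.99 in replicate 1 and 2.40 in replicate 2. At the outermost TSS a peak at chr7:60140221-60140420 had 0.223 and 0.413, the lowest promoter signal of any member. Both libraries thus had several times more signal at the internal start. Downstream of it, 3 weaker shared peaks followed within the next 2 kb of intron, at chr7:60003941-60004700 (0.683 and 0.528), chr7:60003621-60003920 (0.475 and 0.327) and chr7:60003001-60003340 (0.489 and 0.586). The first of these 3 held 5 TGCCGC words, none of them in a footprint of either library. No footprint was called anywhere in that peak, so this says nothing about the words themselves. The peak at the main TSS held 2 such words. The one at chr7:60005120 lay in a footprint of replicate 1 only, and the one at chr7:60005196 in a footprint of both libraries.

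Between the annotated Snrpn starts lay a peak that matches a start in another annotation. At chr7:60047941-60048140 the signal was 0.630 in replicate 1 and 1.01 in replicate 2, in a Snrpn intron of the GENCODE annotation. The RefSeq annotation has a Snrpn start at chr7:60047978, inside that peak and 42867 bp from the nearest GENCODE TSS. Upstream alternative starts of this kind are known in this domain as copies of one another. This peak, the peak at the outermost start and 2 weak peaks between them, which lie at no start of either annotation, share an NRF1 word, CGCATGCG, the palindromic binding site of nuclear respiratory factor 1, a promoter-binding factor. The stretches are shown because they let the copies be compared base by base, with the word in capitals, on the plus strand of mm10:
Snrpn chr7:60048027-60048064: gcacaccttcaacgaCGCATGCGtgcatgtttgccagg
Snrpn chr7:60097659-60097696: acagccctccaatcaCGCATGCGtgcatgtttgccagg
Snrpn chr7:60123281-60123318: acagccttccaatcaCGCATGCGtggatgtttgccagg
Snrpn chr7:60140281-60140318: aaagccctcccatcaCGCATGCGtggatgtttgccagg
Snrpn main start chr7:60005141-60005178: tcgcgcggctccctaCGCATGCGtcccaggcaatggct

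Of the 38 bases of the copy at the outermost GENCODE start, 35 were identical in the copies at chr7:60097659 and chr7:60123281, and 29 in the copy at chr7:60048027. RefSeq lists a further Snrpn start at chr7:60450177, which lies outside the locus. Beyond the locus only exact copies were counted, without their positions. The stretch at the main start shares the word but was not part of that family by its flanks. Taking the copies shown by distance from the main start, the signal was 0.819 ± 0.268 (SD, n = 2) for the nearest, 0.184 in replicate 1 alone for the next, 0.188 ± 0.0125 (SD, n = 2) at chr7:60123186-60123318 and 0.318 ± 0.134 (SD, n = 2) at the outermost start. The nearest copy was the highest in both libraries, and the ranges of the others were all below it. Its NRF1 word lay in a footprint of both libraries, that of the next copy in a footprint of replicate 1, and those of the other upstream copies in none. The word at chr7:60123296 lay in the peak of replicate 1 only. A further NRF1 word between the starts, at chr7:60076506, lay in no peak and no footprint. The word at the main start lay in a footprint of replicate 2 only. The 38-base stretch at chr7:60123281 occurs 3 times in the genome and the other 4 once, so reads from that copy may be harder to place. The part of read placement in its low signal was not tested.

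Ndn, a single-exon gene for the neuronal protein necdin that is expressed from the paternal copy, had its open site away from the start given by GENCODE. Its only GENCODE TSS, at chr7:62346569, had no peak and no listed cut-rate base pair in either library. A shared peak at chr7:62348181-62348380 lay 1712 bp inside the annotated gene with 1.77 in replicate 1 and 2.04 in replicate 2, a level within the range of the other members' promoters. RefSeq starts Ndn at chr7:62348277, inside this peak. The peak held an NRF1 word in a footprint of both libraries. Over all shared peaks, 75.6% of 938 such words lay in a footprint of both. The word is shown within 30 bases on the plus strand because it is a CpG-rich word at this start:
Ndn chr7:62348243-62348272: gcttcccaacaCGCATGCGcaatatcgcat

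Further into the Ndn gene and behind it, 2 weaker shared peaks were found at chr7:62348681-62349160 (0.392 and 0.413) and chr7:62351281-62351560 (0.194 and 0.274). RefSeq starts did not add open sites everywhere: both Grb10 starts and 1 of the 2 Meg3 starts in RefSeq had no shared peak in their windows.

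Ube3a, at chr7:59228750-59311536 on the plus strand, had the strongest promoter and the emptiest locus. Its 2 shared peaks, chr7:59228501-59228860 (4.99 and 6.05) and chr7:59229121-59229740 (2.12 and 1.50), covered the 9 TSSs of its 5′ end. The other 7 TSSs, which lie 14158 to 74761 bp downstream, had none. Replicate 1 alone had 3 further peaks inside the gene, of 0.199, 0.295 and 0.218, and replicate 2 had none. At 0.195 shared peaks per 10 kb its locus was above 28.8% of genes.

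Peg3, at chr7:6703892-6730431 on the minus strand, encodes a zinc finger protein expressed from the paternal copy and shares its CpG-rich start with Usp29, which runs the other way. The promoter peak at chr7:6730241-6730620 had 1.82 in replicate 1 and 2.44 in replicate 2 and covered 3 of the 4 Peg3 TSSs. The remaining TSS, 7216 bp downstream, had none. A weaker peak on the Usp29 side, chr7:6730921-6731171, had 0.499 and 0.591. The first intron was open as well. Its 3 shared peaks were chr7:6729441-6729760 (2.63 and 3.27), chr7:6728281-6728980 (2.17 and 2.60) and chr7:6727381-6728020 (1.64 and 1.89), and in each library the first of them exceeded the promoter peak itself.

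These intron peaks carried repeated YY1 words. YY1 is a zinc finger protein that binds promoters and can both activate and repress, and its sites in the Peg3 control region are known. The word AANATGGC occurred 10 times in the 3 peaks, all on the plus strand, out of 12 occurrences in all shared peaks of the members. At Peg3, 7 of the 10 words overlapped a footprint in at least 1 library and 4 did so in both. Over all shared peaks of the genome, 43.0% of 4677 YY1 words overlapped a footprint in either library and 22.2% in both. The 4 words footprinted in both libraries are shown with the word in capitals, on the plus strand of mm10, because they are the best supported of the array:
Peg3 chr7:6727949-6727986: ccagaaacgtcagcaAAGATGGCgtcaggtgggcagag
Peg3 chr7:6728436-6728473: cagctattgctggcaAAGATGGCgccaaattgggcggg
Peg3 chr7:6728724-6728761: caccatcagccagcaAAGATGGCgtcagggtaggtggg
Peg3 chr7:6729574-6729611: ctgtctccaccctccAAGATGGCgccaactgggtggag

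At the far end of the Peg3 locus, 33890 bp from its start, the peak at chr7:6696421-6696660 (2.62 and 3.01) lay in the promoter window of Zim1, another zinc finger gene of the domain. It was the only 1 of the 27 shared peaks away from the members' own TSSs that lay within 500 bp of a TSS of another gene.

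H19, a non-coding RNA expressed from the maternal copy in the embryo, lies at chr7:142575529-142578143 on the minus strand. None of its 7 TSS windows held a peak in either library. The cut-rate table of replicate 1 listed 3 bp near the outermost start with a lowest FDR of 0.0473, and that of replicate 2 listed nothing. In contrast, the region 2 to 4 kb upstream, where the imprinting control region of H19 and Igf2 is known to lie, held 3 shared peaks. In order from the gene they were chr7:142580183-142580440 (0.828 and 0.514), chr7:142580661-142580880 (1.04 and 1.02) and chr7:142581701-142582100 (0.867 and 0.984), with another shared peak further out at chr7:142584887-142585185 (0.480 and 0.514).

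Each of the 3 peaks 2 to 4 kb upstream held a match to the CTCF consensus of 14 letters, on the minus strand. They are shown 5′ to 3′ on that strand, with the match in capitals, because methylation of CTCF sites here is known to decide which copy the insulator occupies:
H19 chr7:142580294-142580337: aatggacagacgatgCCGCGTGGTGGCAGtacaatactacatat
H19 chr7:142580749-142580792: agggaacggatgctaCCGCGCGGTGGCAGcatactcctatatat
H19 chr7:142582019-142582062: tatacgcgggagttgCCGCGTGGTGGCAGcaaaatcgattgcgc

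The matches at chr7:142580294 and chr7:142582019 overlap a TGCCGC word, the ZFP57 word, at their 5′ end. The nearer matches, 2166 and 2621 bp upstream, lay in footprints of both libraries. The farthest, 3891 bp upstream, lay in a peak and a footprint of replicate 1 only, because the peak of replicate 2 ended before it. The cut rate at that place was nevertheless listed in both libraries, with a −log10 FDR of 8.26 in replicate 1 and 3.89 in replicate 2. The same shared peak holds a TGCCGC word at chr7:142581800, in a footprint of replicate 1 only. The letters there come close to the CTCF consensus without matching it, and such near matches were not counted. The −log10 FDR at this word was higher, 9.25 in replicate 1 and 8.99 in replicate 2. Another consensus match in the locus, 9699 bp upstream, lay in no peak and no footprint.

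**Figure D3:**
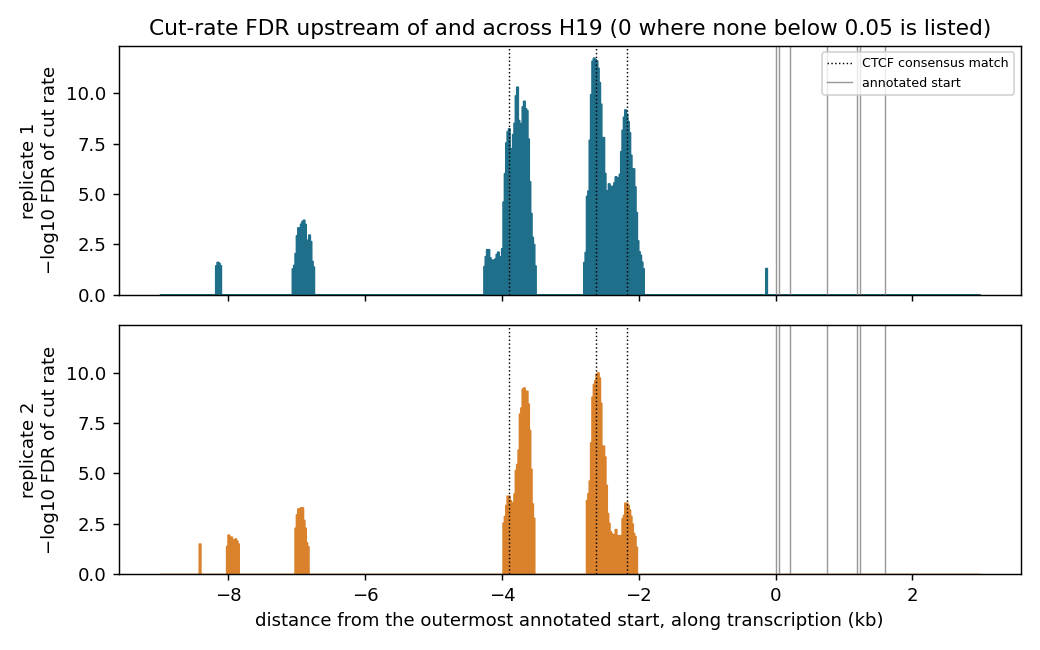
Highest −log10 FDR of the cut rate in 20 bp steps (vertical axis) against distance from the outermost H19 start in kb (horizontal axis), replicate 1 above and replicate 2 below, with CTCF matches dotted and annotated starts grey. In both libraries the maximum lies near the match 2621 bp upstream (11.8 in replicate 1 and 10.0 in replicate 2), and nothing is listed across the gene.

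Cdkn1c, at chr7:143458339-143461050 on the minus strand, encodes the cell-cycle inhibitor p57 and is expressed from the maternal copy. Its promoter peak, chr7:143461001-143461260, had 1.56 in replicate 1 and 1.82 in replicate 2 and covered 2 of 5 TSSs. The 2 TSSs at 877 and 888 bp inside the gene had in their windows a peak of replicate 1 alone (0.460), and the remaining TSS had none. Upstream peaks were stronger than the promoter in both libraries at chr7:143463981-143464180 (2.14 and 2.34) and chr7:143466401-143466620 (2.29 and 3.45). Another at chr7:143470041-143470260 had 1.15 and 2.38, and this pair of values was the most unequal among the members, 1.93-fold after the libraries were centred. With 5 shared peaks, or 2.20 per 10 kb, the locus was denser than 96.0% of genes.

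The stronger pair of upstream Cdkn1c peaks, 3031 and 5461 bp from the start, each held a CTCF match in a footprint of both libraries. The matches are the same 14 letters in different flanks, shown on the minus strand because they lie in the strongest peaks of the locus:
Cdkn1c chr7:143464063-143464106: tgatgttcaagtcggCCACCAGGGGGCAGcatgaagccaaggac
Cdkn1c chr7:143466481-143466524: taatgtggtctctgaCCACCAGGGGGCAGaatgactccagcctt

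CpG is the dinucleotide at which mammalian DNA is methylated. The 14 letters of both Cdkn1c matches hold 0 CpGs, whereas the H19 matches hold 2, 3 and 2 in the order shown.

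Meg3, a lincRNA expressed from the maternal copy, lies at chr12:109541001-109571726 on the plus strand. The promoter peak at chr12:109540701-109540960 had 1.30 in replicate 1 and 1.61 in replicate 2 and served the 3 outermost TSSs. TSSs 1022 and 1267 bp inside shared a peak at chr12:109542021-109542280 (0.877 and 0.869), and those 5390 and 5444 bp inside shared one at chr12:109546301-109546480 (0.513 and 0.509). The remaining 4 TSSs had none. The strongest peak of the locus was not at a TSS: chr12:109542941-109543140, in a Meg3 exon 2040 bp from the start, had 2.77 and 2.45. A weaker peak lay just upstream of the promoter at chr12:109540107-109540410 (0.538 and 0.610).

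Both exon peaks of Meg3 nearest the start held a CTCF match, and the stronger one held an NRF1 word as well. All 3 matches lay in footprints of both libraries, and they are shown because the NRF1 word and the CTCF match at chr12:109543023 lie in the strongest peak of the locus, with the CTCF match of the weaker peak for comparison. The match at chr12:109543023 is on the minus strand and the others are on the plus strand:
Meg3 CTCF chr12:109542155-109542198: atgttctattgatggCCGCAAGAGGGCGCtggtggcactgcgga
Meg3 NRF1 chr12:109543085-109543122: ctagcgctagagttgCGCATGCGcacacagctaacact
Meg3 CTCF chr12:109543023-109543066: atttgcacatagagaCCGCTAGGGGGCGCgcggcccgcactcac

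Plagl1, a zinc finger transcription factor gene expressed from the paternal copy, spans chr10:13060504-13131694. At its outermost start the signal was 0.470 in replicate 1 and 0.427 in replicate 2, from peaks at chr10:13060841-13061240 and chr10:13060344-13060640. A group of 8 TSSs 30187 to 30509 bp further in shared a peak at chr10:13090541-13091100 with 1.32 and 1.50, so in both libraries the internal start was the more open. This peak held 3 TGCCGC words, of which 1 lay in a footprint of both libraries. Another 2 TSSs further downstream had no peak. Away from TSSs the locus had shared peaks at chr10:13087321-13087500 (0.547 and 0.778) and chr10:13127389-13127560 (0.368 and 0.413).

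Grb10, which encodes an adaptor protein that dampens insulin receptor signalling, is known to be expressed from the paternal copy in neurons and from the maternal copy in most other tissues, from different promoters. It spans chr11:11930508-12038683 on the minus strand. Of its 9 TSSs, the outermost, the one 1282 bp further in and the one 10712 bp in had no peak and no listed cut rate in either library. The TSSs 11951 and 12359 bp inside were open. Their 3 peaks, from upstream to downstream, were chr11:12026661-12027040 (0.916 and 0.884), chr11:12026181-12026660 (1.29 and 1.17) and chr11:12025761-12025980 (2.24 and 2.48). Deeper in the gene, shared intron peaks at chr11:11973481-11973680 (0.906 and 0.893) and chr11:11974921-11975220 (0.499 and 0.648) were weaker than the strongest of these in both libraries. The 4 TSSs that lie 68041 bp or more inside had no peak.

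Impact, which encodes a regulator of translation abundant in neurons and is expressed from the paternal copy, spans chr18:12955852-12992950 on the plus strand. The outermost 2 TSSs shared a peak at chr18:12955661-12955900 with 1.46 in replicate 1 and 1.23 in replicate 2. Another cluster of 5 TSSs, 16071 to 18822 bp inside, had 3 peaks. They were chr18:12972081-12972320 (1.71 and 1.92), chr18:12972961-12973900 (2.17 and 2.67) and chr18:12974281-12974560 (1.02 and 1.00), and the middle one held 5 TGCCGC words, of which 2 lay in a footprint of a single library and none in one of both. The 2 TSSs furthest downstream had no peak. Upstream of the gene, chr18:12948261-12948460 (1.49 and 2.25) held a CTCF match in a footprint of both libraries, and chr18:12947207-12947660 had 0.421 and 0.620.

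Across the 10 loci there were 66 merged peaks, of which 48 were shared, 12 were found in replicate 1 only and 6 in replicate 2 only. The shared portion was 72.7%, beside 52.2% of all merged peaks. Every member locus held at least 1 shared peak, beside 76.1% of protein-coding and lincRNA genes, whose loci differ in length. The lowest count of a member was 2, at Ube3a. The median density was 1.02 shared peaks per 10 kb, beside 0.454 over all those genes, and ranged from 0.195 for Ube3a, 0.390 for Grb10 and 0.394 for Snrpn to 1.77 for H19 and 2.20 for Cdkn1c. The short genes H19, Cdkn1c and Ndn, whose loci are mostly flank, were among the 4 densest. The shared peaks had a median signal of 0.969, beside 0.796 for all 80522 shared peaks, and 21 lay at an own TSS and 27 away from it.

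The libraries resembled each other closely in peak signal at the shared sites. After the libraries were centred on their median ratio, all 48 shared peaks differed by less than 2-fold, as did 99.2% of all shared peaks. The cut-rate FDR could differ far more. In the strongest Meg3 peak its highest −log10 value was 116 in replicate 1 and 17.1 in replicate 2. The peaks found in 1 library were weak, with 0.543 as the highest. Of the 48 shared peaks, 40 (83.3%) held at least 1 footprint in each library, not always the same one, beside 83.3% of all shared peaks. The loci held 203 in replicate 1 and 185 in replicate 2, and 99 of the former, or 48.8%, overlapped one of the latter, beside 39.5% over the genome.

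**Figure D4:**
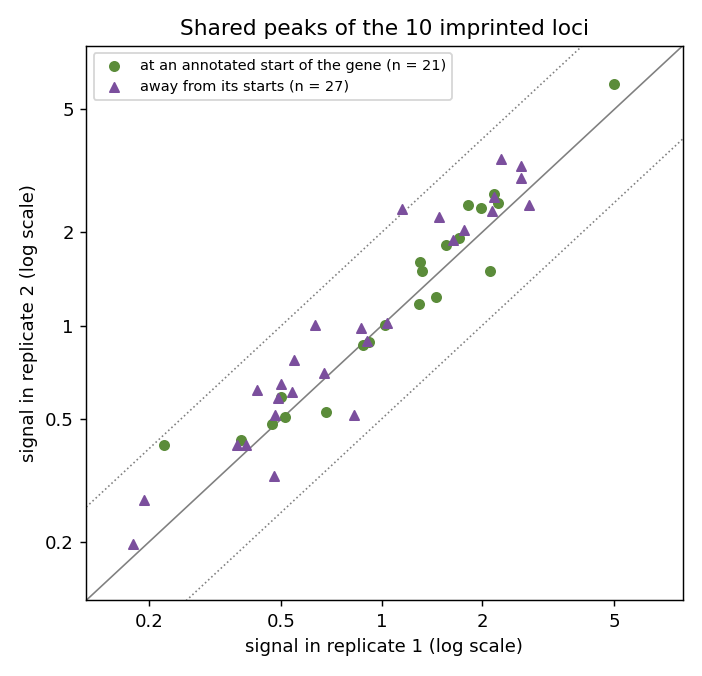
Signal of the 48 shared peaks in replicate 1 (horizontal axis) and replicate 2 (vertical axis), both depth-normalized cut density on log scales, with equality (solid) and 2-fold (dotted) lines; circles are peaks at a TSS of the gene and triangles peaks away from it. The points follow the line of equality from about 0.2 to the Ube3a promoter at 4.99 and 6.05.

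Consensus words were counted on both strands in windows of 150 bp centred on the shared peaks. The member windows and all windows were not matched for nearness to a TSS, and 21 of the 48 member peaks lay at an own TSS. The members' windows held the NRF1 word in 6 of 48 cases (12.5%), beside 0.705% of all 80522 windows. Of these 6, 4 were at Snrpn, where 3 are copies of each other, and the rest were at Ndn and Meg3. The Snrpn word at chr7:60123296 lay in the peak of replicate 1 but not in that of replicate 2. CTCF was matched in 7 windows (14.6% beside 8.63%), all in the H19, Cdkn1c, Meg3 and Impact loci. ZFP57's TGCCGC was found in 4 windows (8.33% beside 7.18%), SP/KLF GGGCGG in 10 (20.8% beside 17.5%), YY1 AANATGGC in 1 (2.08% beside 2.84%), AP-1 TGANTCA in 1 (2.08% beside 7.44%) and EGR GCGTGGGCG in 0 (beside 0.361%). The YY1 words of Peg3 lie mostly outside these windows, because its peaks are wide. Over whole shared peaks, all 8 CTCF matches of the members overlapped a footprint in at least 1 library and 7 did in both, beside 94.4% and 87.2% of 8100 matches in all shared peaks. Of the 29 TGCCGC words, 11 overlapped a footprint in at least 1 library and 4 in both, beside 35.7% and 14.1% of 14168 such words in all shared peaks. Of the 6 NRF1 words, 4 overlapped a footprint in at least 1 library and 3 in both. The shares over all shared peaks were higher, 87.5% and 75.6% of 938 such words. A match describes the letters and is not a measurement of binding.

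**Figure D5:**
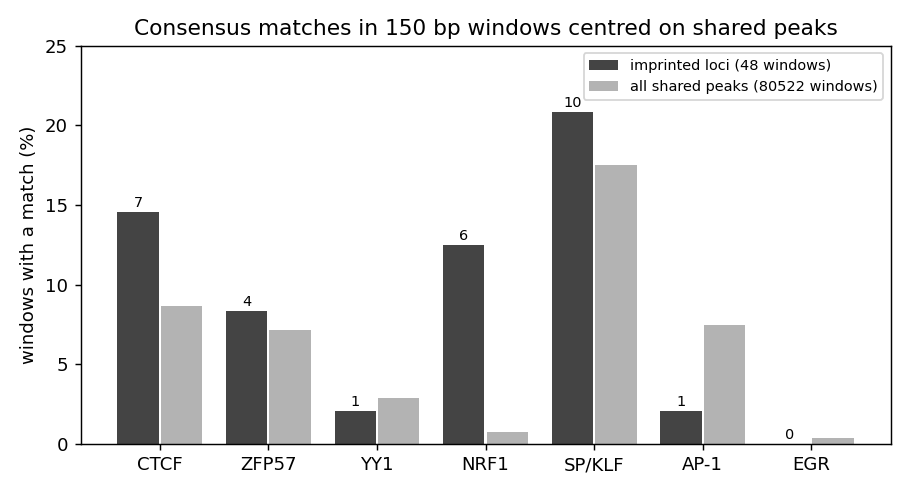
Percent of 150 bp windows with a consensus match (vertical axis, from 0) for 7 words (horizontal axis), in the 48 shared peaks of the imprinted loci (dark bars, with the number of windows above) and in all 80522 shared peaks (light bars). The NRF1 bars differ most as a ratio, 12.5% beside 0.705%, and rest on 6 windows. The sets of windows were not matched for nearness to a TSS.

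CpG content was taken over the same windows, again not matched for nearness to a TSS. The median GC content of the windows was 60.0%, beside 54.7%, and the median ratio of observed to expected CpG was 0.526, beside 0.358. A ratio of at least 0.6, a usual mark of CpG islands, was reached by 16 of the 48 windows (33.3%), beside 27.4% of all. Of these 16, 10 lay at an own TSS and 6 away from it, among them the Ndn peak at its RefSeq start and the H19 peak nearest the gene.

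Of 29 neighbours in the same domains, most of them protein-coding, 17 had a shared promoter peak, or 58.6%. The shares over all genes were 64.3% of protein-coding and 18.9% of lincRNA genes. In the Peg3 domain Usp29 shared the Peg3 peak and Zim1 had its own, while Zfp264 and Zim3 had none. Beside Snrpn, Snurf shared its peak, and the others were weak: Atp10a 0.823 and 0.759, Magel2 0.635 and 0.552, Mkrn3 0.460 and 0.528, Snhg14 0.547 and 0.346 and Peg12 0.465 and 0.456. Around Meg3, Mirg had 1.12 and 1.13, Rtl1, Rian and Dio3 had none, and Dlk1 had a peak in each library (0.189 and 0.480) but no shared one. Igf2 and Ins2, the protein-coding neighbours of H19, had none.

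Around Cdkn1c the order was wide. Tssc4 had 3.84 and 5.07, Kcnq1ot1, the non-coding RNA whose promoter is the control region of this domain, 2.21 and 3.01, and Cd81 2.16 and 2.46. Ascl2 had 1.23 and 0.984 and Phlda2 0.668 and 0.701, Kcnq1 had a peak in replicate 2 only (0.384), and Slc22a18 had none. Cobl beside Grb10 had 1.21 and 1.09 and Ddc none, Osbpl1a beside Impact had 2.41 and 2.84 and Hrh4 none, and Phactr2 beside Plagl1 had 0.896 and 0.821. Among 25 genes of other imprinted domains, most of them protein-coding, 23 had a shared promoter peak, or 92.0%, beside 64.3% of all protein-coding genes. Slc38a4 had none, and Asb4 had a peak in each library (0.378 and 0.346) but no shared one. The median highest promoter signal of the 23 was 2.09.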

How the data were processed

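DNase-seq was measured in 2 libraries of 1 group. Per the labels, the authors aligned reads to mm10; the aligner, peak caller and footprint caller were not given in the sources used here. The deposited peak lists, called by the authors per library, give the signal, a cut density normalized to read depth. The deposited footprint and cut-rate tables give an FDR, that is, an adjusted p-value (q-value); every footprint is listed at 0.01, and cut rates only below 0.05. CAST/EiJ reads with mismatches to mm10 may be lost in alignment, which would lower signal there. No column of other samples was used.

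Peaks of the larger lists were merged at an overlap of at least 1 bp, and the highest signal per TSS window and library was taken. Genes and sequence came from GENCODE M21 and GRCm38.p6, the same build as mm10; RefSeq promoter entries of GRCm38 were matched for 7 of 10 members (not Impact, H19 and Cdkn1c). Python 3.11.15 and numpy 2.4.6 were used, and the overlap code was tested on simulated intervals. No p-value was computed. Every member TSS was reported, with up to 3 of the strongest shared peaks away from them, and peaks and words beyond that were chosen after their values were seen. Alternatives covered the stricter lists, other windows and flanks, overlap rules and single libraries. Hymai, a listed neighbour, was not matched in the annotation. The members, gene lists and words were chosen with earlier results of these data known.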

Additional observations from a re-analysis of the deposited data

How the results depend on the processing

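The count of 8 members with a shared promoter peak was the same with the stricter peak lists, with windows of 250 or 1000 bp, with a reciprocal overlap of 50% and with either library alone. It was 7 with outermost starts only, and all these counts use GENCODE starts, without the RefSeq start of Ndn that lies in a shared peak. The 41 promoters ranged from 38 to 45 under those settings, was also 41 where a peak of each library had to reach the window (chosen after seeing the data), and gave 14 of 35 once overlapping windows were merged, since neighbouring starts share a peak. Single libraries gave 41 and 43 promoters and 59 and 65 peaks in the loci. The 48 shared peaks became 38 with the stricter lists, 42 with reciprocal overlap, 32 without flanks and 71 with flanks of 50 kb. The mean of 194 footprints per library fell to 99 when those found in both were counted. The count of 4 genes with an internal strongest promoter, itself chosen after seeing the data, was 4 with the stricter lists or a window of 250 bp and 5 with 1000 bp. Promoter signals moved by less than 1 SD in 8 of 8 genes with the stricter lists or centred libraries, but in 6 of 8 with 250 bp windows (Grb10 1.23, Impact 1.82) and 5 of 8 with 1000 bp (Peg3 2.95, Meg3 2.61, Impact 2.42), which take in fewer or more peaks. No paired analysis was possible because there is 1 group. With n = 2, small differences between members cannot be told from the spread.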

Other observations

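Peaks of 1 library were unevenly spread over some other imprinted loci. The Rian locus, a non-coding RNA gene of the Meg3 domain, had 13 peaks in replicate 1 alone, none in replicate 2 alone and 1 shared. The 13 had a median signal of 0.320 and a highest of 0.451. The locus of Airn, the antisense non-coding RNA at Igf2r on chromosome 17, had 3 peaks in replicate 1 alone, 30 in replicate 2 alone and 11 shared. The 30 had a median signal of 0.132 and a highest of 0.807. At the member loci the counts of peaks found in a single library differed by at most 3, at Ube3a.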
